A study of Homo sapiens with 6 samples.

Results

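Sorting nexin, VPS and CHMP genes code for the proteins that sort cargo on endosomes and cut membrane buds away from the cytosol. They were compared here between large physaliferous and small non-vacuolated MUG-Chor1 cells. The members were the genes whose platform symbol starts with SNX, VPS or CHMP and then a digit. Only probe sets that name a single gene were used, and of several probe sets of a gene the one with the highest mean over the 6 arrays was kept. This gave 73 of 18404 genes, namely 30 SNX, 34 VPS and 9 CHMP genes. One of them, *SNX29P2*, is a transcribed pseudogene.
MUG-Chor1 is an established human chordoma line, and chordoma is a bone tumor with features of the notochord. Both groups share the line and its growth medium, received no agent and carry no engineered allele, and were told apart by morphology under the microscope. The large group holds vacuolated (physaliferous) cells and the small group cells without vacuoles, and each array measured amplified cDNA of 20 cells picked by micromanipulation after trypsin treatment. There were 3 large pools (pools 2, 3 and 4) and 3 small pools (pools 5, 6 and 7). The methods speak of biological replicates for the PCR assays on such pools, and neither they nor the labels say whether the pools stem from separate cultures. The p-values therefore measure only the spread between these pools, part of which may be technical. In such pools a smaller number of expressing cells and less RNA per cell cannot be told apart. The question was whether the 2 phenotypes differ in the machinery that forms, fuses and cuts endosomal membranes.

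Endosomes receive proteins from the cell surface and pass them back, to the Golgi or to the lysosome. Sorting nexins bind phosphoinositides on endosomes, and those with a BAR domain bend the membrane into tubules. Retromer (VPS26, VPS29 and VPS35) picks cargo for return, while the tethers HOPS and CORVET join endosomes to each other and to lysosomes. ESCRT complexes sort ubiquitinated cargo into inward buds, which CHMP filaments and the VPS4 ATPases then cut. The vacuoles of notochord cells are known as lysosome-related organelles that depend on endosomal traffic.

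On the level of single genes 0 of the 73 members passed an adjusted p of 0.05 with limma, as did 0 of 18404 genes (0.0%). The smallest adjusted p of a member was 0.32. At an unadjusted p under 0.05 from limma 9 members were higher and 4 lower in large cells. Over all genes 4.33% were higher and 10.5% lower at that limit. The 9 were *SNX1*, *VPS37A*, *VPS8*, *VPS4A*, *VPS13A*, *VPS13D*, *VPS26C*, *VPS29* and *CHMP2B*, and the 4 were *SNX20*, *SNX6*, *VPS37D* and *VPS18*.
In 9 members every large pool lay above every small pool (all genes 5.48%), and in 8 members every large pool lay below (all genes 21.6%). In the deposited values the members thus stood more often above and less often below than genes in general, as a description with no test. After removal of a trend with signal level, described further down, 6.85% of members and 7.54% of all genes lay wholly below. With arrays centred on their median these shares were 8.22% and 10.7%. Of the members 42.5% had a lower mean in large cells, compared with 66.4% of all genes. The median log2 fold change, large minus small, was 0.04 for SNX, 0.12 for VPS and -0.11 for CHMP genes, beside -0.11 for all genes. It ran from -0.95 for *VPS25* to 1.13 for *SNX1*, the only member with a difference above 1.

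**Figure D1:**
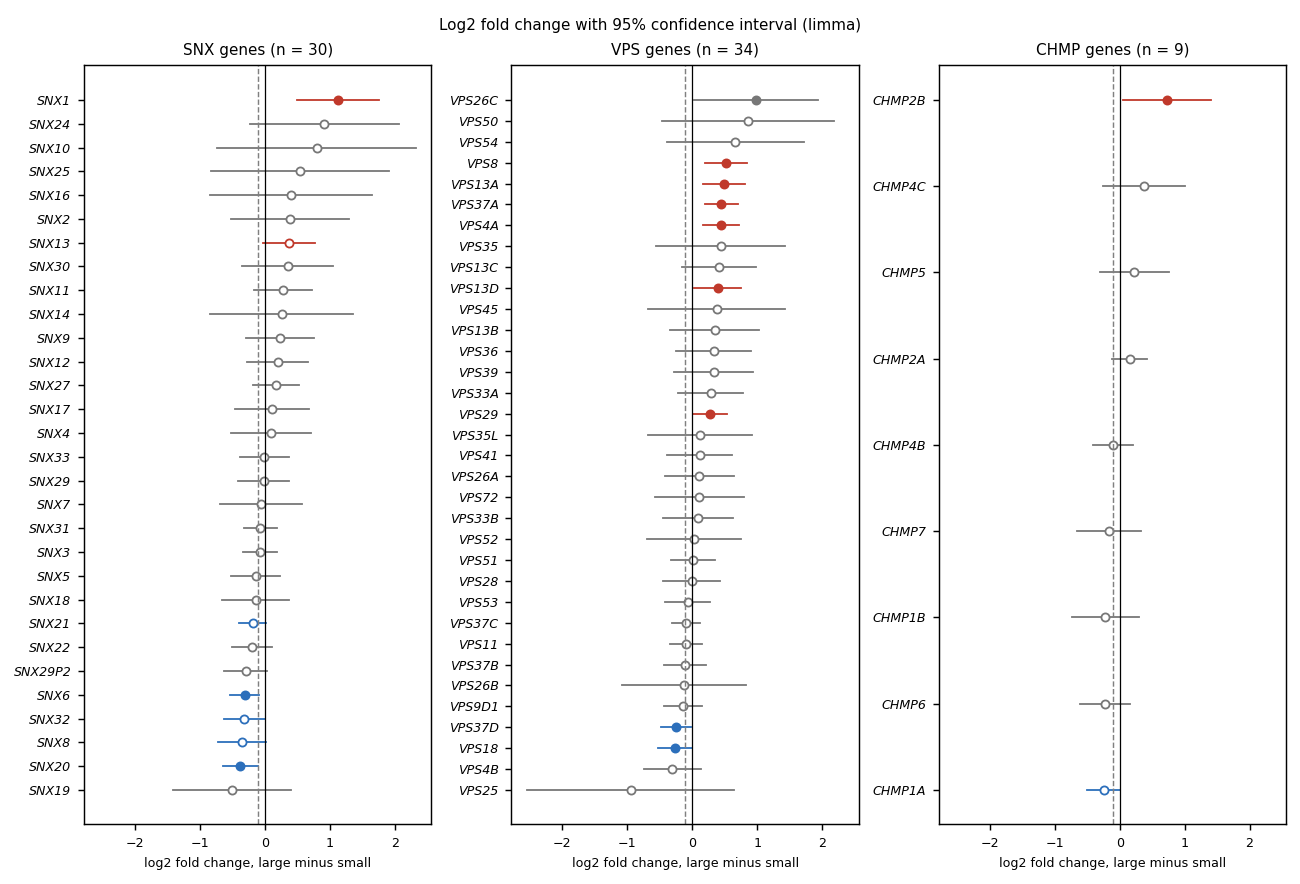
The 30 SNX, 34 VPS and 9 CHMP genes in order of their log2 fold change, large minus small, on the horizontal axis; bars are the 95% confidence intervals that limma gave. Filled points have an unadjusted p under 0.05, red marks genes with every large pool above every small pool and blue those with every large pool below, the solid line is 0 and the dashed line the median of all genes (-0.11).

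The fold change of all genes varied with signal level. In 20 equal classes of genes by level, the median was -0.18 in the class at a log2 level of 6.89 and 0.13 in that at 9.20. The members had a median level of 7.47, all genes one of 6.83. In the class at a level of 7.50 the median fold change was -0.13. With this trend removed from each array the medians were 0.12 for SNX, 0.19 for VPS and -0.04 for CHMP genes and -0.00 for all genes. Then 9 members were higher (all genes 6.15%) and 1 was lower (all genes 2.48%) at an unadjusted p under 0.05 from limma, and 10 had every large pool above (all genes 8.5%) and 5 every large pool below (all genes 7.54%). With each array centred on its median instead, 10 members were higher (all genes 6.56%) and 2 lower (all genes 3.9%) at that limit, and 12 lay wholly above (all genes 8.65%) and 6 wholly below (all genes 10.7%). Both scalings lowered the share of lower genes, by more percentage points for all genes than for the members. The order of the families by their median, VPS first and CHMP last, was the same with and without the trend. It was not the same in every setting, with SNX last over members above the floor (0.10, CHMP 0.15) and without large pool 4 (-0.00, CHMP 0.06), and SNX first without small pool 5 (0.08, VPS 0.07).
The expression floor was set at log2(100), which is 6.64. All 6 pools lay above it for 49 members and none for 9, and 15 members were above it in some pools. The 61 members above it in at least 25% of the arrays had 8 higher (genes above the floor 5.65%) and 1 lower (9.37%) at an unadjusted p under 0.05 from limma, with 9 wholly above (7.22%) and 5 wholly below (21.3%). The pools of a group differed more for members than for genes in general, with a median SD of 0.22 in large and 0.20 in small cells, against 0.17 and 0.15 for all genes. Among the 61 members the medians were 0.22 and 0.22, against 0.18 and 0.18 for all genes above the floor. Leaving out 1 pool turned the sign of the fold change in 22 of the 73 members. In 56 members it turned the sign or moved the fold change by more than 1.5 times. *CHMP2B* was the 1 such gene among the 13 with an unadjusted p under 0.05, which were picked on the same values.

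**Figure D2:**
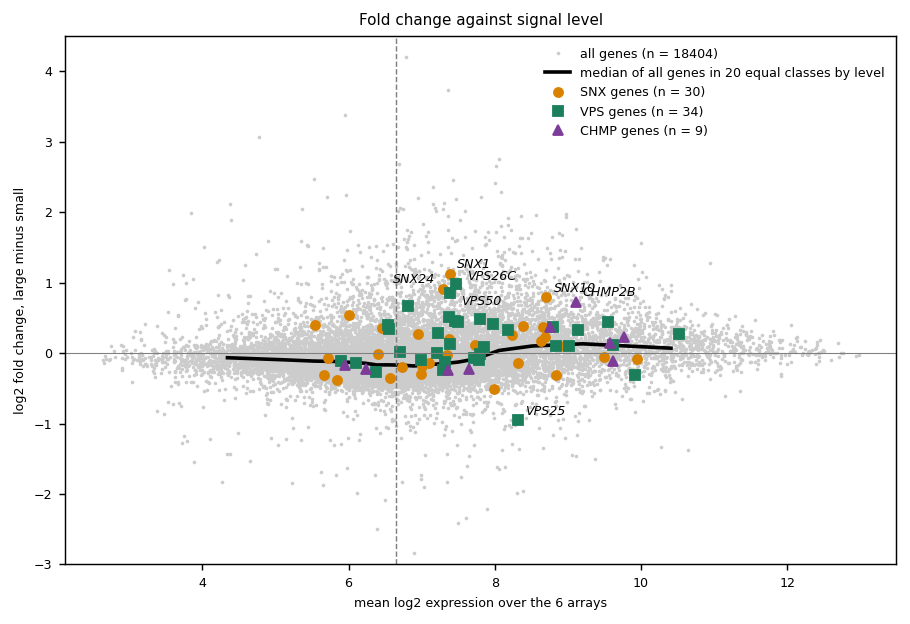
The log2 fold change, large minus small (vertical axis), is plotted over the mean log2 expression of the 6 arrays (horizontal axis). Grey dots are all 18404 genes, coloured symbols the members, the dashed line marks the expression floor and the black line joins the medians of all genes in 20 equal classes by level; 23 of 34 VPS genes lie above 0, and *SNX1* (1.13) and *VPS25* (-0.95) mark the ends.

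Among the sorting nexins that work with retromer, *SNX1* had higher and *SNX6* lower values in large cells, with no overlap between the groups. *SNX1*, a BAR sorting nexin that forms endosomal tubules, had log2 expression of 7.69, 8.33 and 7.81 in large pools 2, 3 and 4 and of 6.64, 6.53 and 7.28 in small pools 5, 6 and 7. The means were 7.95 ± 0.34 (SD, n = 3 pools) and 6.82 ± 0.41 (SD, n = 3 pools). Small pools 5 and 6 lay at or below the floor and all large pools above it. The log2 fold change of *SNX1* was 1.13 (standard error 0.26, 95% confidence interval 0.49 to 1.76, adjusted p = 0.32 from limma).
*SNX6*, a partner of SNX1 and SNX2 in the tubule coat, had 8.67, 8.69 and 8.69 in the large pools and 9.00, 9.09 and 8.90 in the small pools. The large pools of *SNX6* lay close together (SD 0.01, n = 3 pools), below all small pools. Its log2 fold change was -0.31 (standard error 0.09, interval -0.54 to -0.08, adjusted p = 0.32 from limma). The groups overlapped for the partners of these genes. *SNX5* had -0.14 (interval -0.52 to 0.24) and *SNX2* had 0.39 (interval -0.51 to 1.30), with small pool 7 at 9.08 against 7.70 and 7.79 in small pools 5 and 6.
*SNX32*, a close relative of SNX6, was below the floor in all 6 pools and had a fold change of -0.31. Its large pools (5.35 to 5.62) also all lay below its small pools (5.73 to 6.01). *SNX3*, which recruits retromer without a BAR domain, had 9.94, 9.91 and 9.88 in large and 9.85, 10.14 and 9.98 in small pools. Its fold change was -0.08 (interval -0.34 to 0.19). *SNX27*, which links retromer to cargo through a PDZ domain, had 0.17 (interval -0.18 to 0.52). The intervals of *SNX3* and *SNX27* held 0. Whether either gene differs from *SNX6* in its fold change was not tested.

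Among the other sorting nexins *SNX13* lay wholly above and *SNX8*, *SNX20* and *SNX21* lay wholly below. Of all 30 SNX genes 2 lay wholly above (all genes 5.48%) and 5 wholly below (all genes 21.6%). Of the 7 other BAR sorting nexins 3 were higher and 4 lower, and 0 had an unadjusted p under 0.05 from limma. Their fold changes ran from -0.36 (*SNX8*) to 0.35 (*SNX30*). *SNX13*, a sorting nexin with an RGS domain, had 8.67, 9.18 and 8.67 in the large and 8.48, 8.53 and 8.39 in the small pools. All large pools of *SNX13* lay above all small pools, and its fold change was 0.37 (interval -0.03 to 0.77). The related genes *SNX14*, *SNX19* and *SNX25* had 0.26, -0.51 and 0.54 with overlapping groups (*SNX14* -0.16 without small pool 5, *SNX25* -0.13 without large pool 2). *SNX25* was above the floor in large pool 2 only (7.61 against 5.54 and 5.69). *SNX20*, best known from leukocytes, had 5.67, 5.61 and 5.67 in large and 5.87, 6.18 and 6.03 in small pools. All these values of *SNX20* are below the floor, and its fold change of -0.38 is a difference between signals under the floor. *SNX21* had 6.95, 6.85 and 6.94 in large and 7.13, 7.09 and 7.09 in small pools, a fold change of -0.19 (interval -0.40 to 0.02).
*SNX10*, a small PX protein linked to vacuole formation and to the V-ATPase, had 9.36, 8.94 and 9.01 in the large pools. In the small pools it had 8.07, 7.12 and 9.72. The large pools were close to each other while the small pools spread over more than the difference between the phenotypes. The fold change was 0.80 (interval -0.73 to 2.32), and 0.20 without small pool 6 and 1.50 without small pool 7. *SNX24* had 7.95, 7.83 and 7.49 in large and 7.93, 6.09 and 6.49 in small pools. Its small pool 5 lay among the large pools, and the fold change was 0.92 with it and 1.46 without it.

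**Figure D3:**
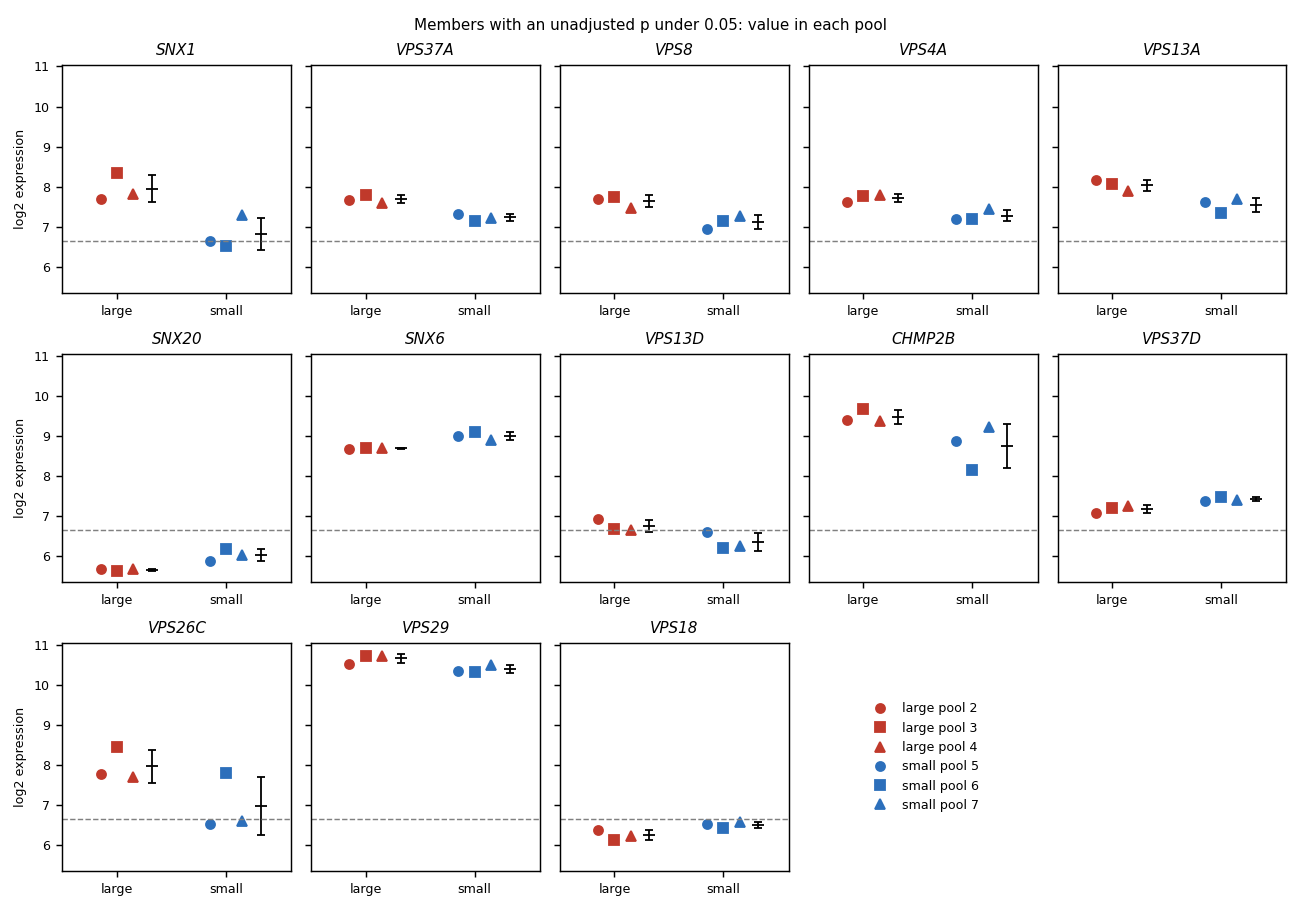
Log2 expression (vertical axis) of the 13 members with an unadjusted p under 0.05 in each large (red) and small (blue) pool, ordered by p. Black marks give the mean and SD (n = 3 pools), the dashed line shows the floor, and *SNX20* and *VPS18* lie below the floor in all pools. In every panel but that of *VPS26C* the 2 groups do not overlap, which is no added support, since the genes were picked by p on these values.

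Of the retromer core *VPS29* was higher in every large pool, while *VPS26A*, *VPS26B* and *VPS35* overlapped. *VPS29*, the subunit that retromer and retriever share, had 10.52, 10.72 and 10.72 in large and 10.33, 10.33 and 10.50 in small pools. The lowest large pool was thus just above the highest small pool. The log2 fold change was 0.27 (standard error 0.11, interval 0.00 to 0.53, adjusted p = 0.34 from limma).
*VPS35*, the scaffold of retromer, had 9.72, 9.62 and 9.96 in the large pools and 8.39, 9.64 and 9.98 in the small pools. Small pool 5 alone was low, and without it the fold change went from 0.44 to -0.04. *VPS26A* had a fold change of 0.11 (interval -0.43 to 0.64). *VPS26B* had -0.13 (interval -1.08 to 0.82). The direction of both turned without large pool 3, to -0.11 for *VPS26A* and 0.10 for *VPS26B*.
In retriever, the related complex for retromer-independent recycling, *VPS26C* had 7.76, 8.43 and 7.69 in large pools and 6.52, 7.80 and 6.61 in small pools. Small pool 6 lay within the large pools, and the other small pools were below the floor. The fold change of *VPS26C* was 0.98 (standard error 0.39, interval 0.03 to 1.94, adjusted p = 0.34 from limma). It was 1.40 without small pool 6. *VPS35L*, the retriever scaffold, had 0.12 (interval -0.67 to 0.92) and -0.12 without large pool 2. The groups overlapped for *VPS26C* and *VPS35L*, unlike for the shared subunit *VPS29*.

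The tethers HOPS and CORVET share VPS11, VPS16, VPS18 and VPS33A. VPS39 and VPS41 belong to HOPS, which acts at late endosomes and lysosomes, and VPS8 to CORVET, which acts at early endosomes. *VPS8* had 7.69, 7.75 and 7.47 in large and 6.93, 7.14 and 7.28 in small pools. All pools were above the floor and the groups did not overlap. The fold change was 0.52 (standard error 0.13, interval 0.19 to 0.85, adjusted p = 0.32 from limma). *VPS18* had 6.37, 6.13 and 6.23 in large and 6.51, 6.42 and 6.58 in small pools, all below the floor, with a fold change of -0.26. Every large pool of *VPS18* lay below every small pool.
The groups overlapped for *VPS39* and *VPS41*, the subunits of HOPS alone. *VPS39* had 0.33 (interval -0.27 to 0.93) and *VPS41* had 0.11 (interval -0.39 to 0.62). The shared subunits *VPS33A* and *VPS11* had 0.28 (interval -0.22 to 0.79) and -0.09 (interval -0.34 to 0.15). *VPS16* was measured only by a probe set that also names *PTPRA* and is not a member; it had -0.12. *VPS33B*, which acts with VIPAS39 rather than in HOPS, had 0.09 and, without large pool 3, -0.12.
A promoter window here runs from 250 bases before to 50 after the RefSeq gene start (GRCh38.p14). The tether genes *VPS18*, *VPS33A* and *VPS53* had no matched window. *VPS8*, *VPS11* and *VPS50*, a subunit of the recycling tether EARP, are the tether genes with a matched window that holds CACGTG. These letters form the core of the motif read by TFEB and related factors of lysosomal genes. They read the same on both strands and occur in 7.26% of the 35116 windows of this length. The windows are shown since all large pools of *VPS8* lay above the small pools while the groups of *VPS11* and *VPS50* overlapped; capitals mark the motif. The letters also occur in the windows of 2 members outside the tethers, *SNX8*, whose large pools all lay below the small pools, and *VPS37B*. The windows of *VPS8*, *VPS11* and *VPS50* lie on the plus strand at chr3:184811916-184812215, chr11:119067568-119067867 and chr7:93232116-93232415.
VPS8: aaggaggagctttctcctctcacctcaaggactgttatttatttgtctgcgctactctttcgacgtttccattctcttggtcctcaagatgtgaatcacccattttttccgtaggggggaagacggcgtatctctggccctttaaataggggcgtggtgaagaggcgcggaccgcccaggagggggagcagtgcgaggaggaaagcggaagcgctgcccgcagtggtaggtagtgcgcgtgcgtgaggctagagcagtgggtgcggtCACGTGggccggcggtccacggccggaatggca
VPS11: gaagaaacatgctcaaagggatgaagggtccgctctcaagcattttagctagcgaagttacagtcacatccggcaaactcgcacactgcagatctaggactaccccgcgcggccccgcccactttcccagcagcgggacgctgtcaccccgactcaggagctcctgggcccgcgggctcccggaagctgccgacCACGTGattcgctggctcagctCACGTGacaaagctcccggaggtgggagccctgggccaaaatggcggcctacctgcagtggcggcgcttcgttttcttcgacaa
VPS50: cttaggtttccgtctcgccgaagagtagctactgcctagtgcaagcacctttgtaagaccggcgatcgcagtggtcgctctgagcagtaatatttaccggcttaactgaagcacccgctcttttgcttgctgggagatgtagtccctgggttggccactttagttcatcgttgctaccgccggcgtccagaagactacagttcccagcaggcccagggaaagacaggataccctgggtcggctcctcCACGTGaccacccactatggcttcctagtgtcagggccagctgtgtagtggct
The motif begins at base 18 after the start in *VPS8*, and in *VPS11* it occurs 2 times, first 56 bases before the start. Windows were matched for 52 of the 73 members (71.2%), fewer than the 80% needed for a share over the members to mean anything, so none is given. The occurrence of the letters does not show that a factor binds there.
*VPS50* had 7.94, 7.85 and 7.66 in large and 5.63, 7.68 and 7.55 in small pools. Small pool 5 alone was low. The fold change was 0.86 (interval -0.46 to 2.18) and 0.20 without that pool. The other GARP and EARP subunits had fold changes between -0.07 (*VPS53*) and 0.67 (*VPS54*), with all groups overlapping.

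All 4 *VPS13* genes, which code for bridge-like proteins that carry lipids between membranes, had higher means in large cells. *VPS13A* had 8.16, 8.05 and 7.89 in large and 7.62, 7.35 and 7.69 in small pools. The fold change of *VPS13A* was 0.48 (standard error 0.13, interval 0.16 to 0.81, adjusted p = 0.32 from limma). The groups did not overlap and all pools were above the floor.
*VPS13D*, which acts at mitochondria and peroxisomes, had 6.91, 6.67 and 6.64 in large and 6.59, 6.20 and 6.24 in small pools. These values straddle the floor. The fold change was 0.39 (standard error 0.15, interval 0.03 to 0.75, adjusted p = 0.33 from limma). *VPS13C* had 0.42 (interval -0.15 to 0.99) and *VPS13B* 0.34 (interval -0.34 to 1.03), with overlapping groups. *VPS13C* had 0.17 without small pool 6 and *VPS13B* 0.07 without small pool 7. *VPS45*, an SM protein of endosomal fusion, had 0.38 with an SD of 0.64 in large and 0.65 in small cells, and 0.04 without small pool 5.

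In ESCRT-I 1 of 5 genes lay wholly above and 1 wholly below, and in ESCRT-III 1 and 1 of 9. Both genes of ESCRT-II overlapped. Of 15 ESCRT partners, described further down, 2 lay wholly above and 3 wholly below. Over all genes 5.48% lay wholly above and 21.6% wholly below. ESCRT-I captures ubiquitinated cargo. Its subunit *VPS37A* had 7.66, 7.80 and 7.60 in large pools and 7.33, 7.15 and 7.22 in small pools. The groups were apart by more than either SD (0.10 and 0.09, n = 3 pools). The fold change was 0.45 (standard error 0.10, interval 0.20 to 0.70, adjusted p = 0.32 from limma). The alternative subunit *VPS37D* had 7.07, 7.19 and 7.24 in large and 7.37, 7.47 and 7.40 in small pools, a fold change of -0.25 (interval -0.48 to -0.01). *VPS37C* had -0.09 (interval -0.31 to 0.12), *VPS28* had -0.01 (interval -0.45 to 0.43; 0.15 without large pool 3) and *VPS37B* was below the floor in all pools.
In ESCRT-II, which bridges ESCRT-I to the CHMP proteins, *VPS25* had 7.86, 7.77 and 7.90 in large and 10.39, 8.15 and 7.84 in small pools. Small pool 5 alone was high. The fold change of -0.95 (interval -2.54 to 0.64) was -0.15 without that pool, so the lowest fold change among the members rested on 1 pool. *VPS36* had 0.33 (interval -0.25 to 0.91).

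Of the 9 CHMP genes, the filament subunits of ESCRT-III, 4 had higher and 5 lower means in large cells. *CHMP2B*, a late-acting subunit that recruits VPS4, had 9.39, 9.67 and 9.36 in large pools and 8.86, 8.15 and 9.22 in small pools. Every large pool was above every small pool, though small pool 7 came close. The means were 9.47 ± 0.17 and 8.74 ± 0.55 (SD, n = 3 pools). The fold change of *CHMP2B* was 0.73 (standard error 0.28, interval 0.05 to 1.41, adjusted p = 0.33 from limma), and 0.43 without small pool 6.
Its paralog *CHMP2A* had 9.69, 9.62 and 9.65 in large and 9.65, 9.53 and 9.33 in small pools. The fold change was 0.15 (interval -0.12 to 0.42). *CHMP1A* had 7.35, 7.12 and 7.25 in large and 7.50, 7.55 and 7.42 in small pools, so every large pool was lower. Its fold change was -0.25 (interval -0.50 to 0.01), and its paralog *CHMP1B* had -0.22 with overlap (interval -0.73 to 0.29).
The main filament subunit *CHMP4B* had -0.11 (interval -0.42 to 0.20) and *CHMP4C*, which acts in the abscission checkpoint, had 0.37 (interval -0.26 to 1.00) and 0.09 without small pool 7. *CHMP5*, which binds the VPS4 cofactor LIP5, had 0.22 (interval -0.31 to 0.76) and 0.03 without small pool 6. *CHMP6*, which starts filaments at ESCRT-II, and *CHMP7*, which acts at the nuclear envelope, were below the floor in all pools, with -0.23 and -0.17. *CHMP3* and *CHMP4A* were measured only by probe sets that name several genes and are not members. These probe sets had -0.29 for *CHMP3* and 0.22 and 0.09 for *CHMP4A*.
The ATPases that take ESCRT-III filaments apart had means in opposite directions. *VPS4A* had 7.61, 7.76 and 7.79 in large and 7.20, 7.20 and 7.44 in small pools, with no overlap. Its fold change was 0.44 (standard error 0.11, interval 0.16 to 0.72, adjusted p = 0.32 from limma). *VPS4B* had 9.80, 9.73 and 9.76 in large and 9.70, 10.15 and 10.36 in small pools. Small pool 5 of *VPS4B* lay below all large pools, and the fold change was -0.31 (interval -0.74 to 0.13). Whether the 2 ATPases differ from each other in their response was not tested.

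**Figure D4:**
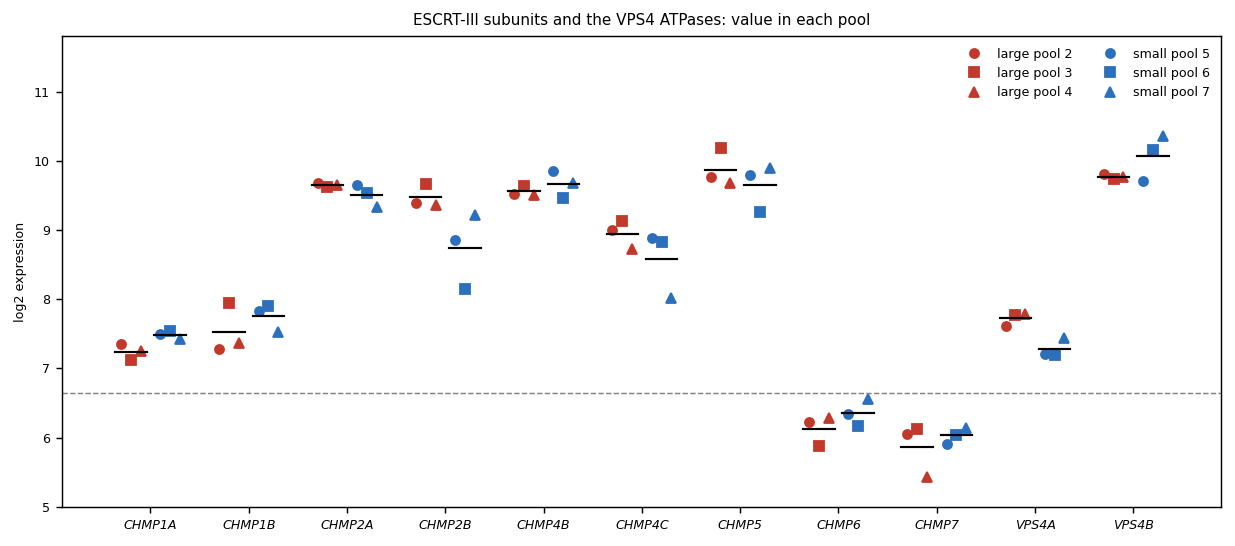
Log2 expression (vertical axis) of the 9 CHMP genes and of *VPS4A* and *VPS4B* in each large (red) and small (blue) pool. Black lines are means (n = 3 pools), the dashed line shows the floor, and *CHMP2B* and *VPS4A* have all large pools above the small pools, *CHMP1A* all below, and *CHMP6* and *CHMP7* lie below the floor in all pools.

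Symbols starting with VPS do not all name endosomal proteins. *VPS72* codes for a chromatin protein that deposits a histone variant, and had 0.11 (interval -0.58 to 0.79), with large pool 4 at 9.52 against 8.65 and 8.52. Without that pool it had -0.20. *VPS9D1* was below the floor in all pools. A second probe set with a single symbol existed for 3 members. It gave -0.26 for *SNX29* (-0.02 for the one used), 0.41 for *VPS53* (-0.07) and -0.18 for *VPS52* (0.02), so for *VPS53* and *VPS52* the probe sets differed in sign.

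Partner genes without a member's symbol were taken from 4 lists. Of 15 ESCRT partners 1 was higher and 3 were lower at an unadjusted p under 0.05, and the median fold change was -0.14. Over all genes 4.33% were higher and 10.5% lower at that limit, and the median was -0.11. *BROX*, a Bro1-domain protein that binds CHMP proteins, had 8.92, 9.32 and 8.85 in large and 7.98, 8.28 and 7.59 in small pools. Its fold change was 1.08 (standard error 0.22, adjusted p = 0.32 from limma), with no overlap. The lower ones were *USP8*, a deubiquitinating enzyme of endosomes, with -0.65 and the ESCRT-I subunits *MVB12B* with -0.38 and *MVB12A* with -0.27.
Of 18 partners of retromer, WASH and retriever 1 was higher (*COMMD10*, 0.85) and 1 lower (*COMMD5*, -0.34), both of the COMMD family that joins retriever, with a median of 0.12 (all genes -0.11). Of 17 partners in tethering and PI3-kinase signaling 2 were higher (all genes 4.33%) and 0 lower (all genes 10.5%) at an unadjusted p under 0.05 from limma, with a median of 0.31 (all genes -0.11). They were *RAB5A*, the GTPase of early endosomes that binds CORVET, with 0.50 and *UVRAG*, a subunit of the VPS34 lipid kinase complex, with 0.54. *UVRAG* was above the floor in 0 of 3 small pools. Of 10 cargo receptors 0 had an unadjusted p under 0.05 from limma, nor did any pass an adjusted p of 0.05, and the median was -0.11.

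All 7 markers of chordoma and notochord, brachyury (*TBXT*) among them, lay above the floor in 6 of 6 arrays, and 0 had an unadjusted p under 0.05 from limma. Of 8 fibroblast markers 8 had lower means in large cells (all genes 66.4%) and 0 an unadjusted p under 0.05 from limma. Their summed linear signal was 1340.1 to 1820.7 in large and 1971.1 to 2310.7 in small pools. *PDGFRA* and *DCN* were below the floor throughout, while *THY1*, *COL1A1*, *COL1A2* and *COL3A1* were above it in all pools. *THY1* had 9.27 to 10.08 in large and 10.07 to 10.21 in small pools. *LUM* reached 8.88 in small pool 7. Of 6 immune markers *CD68*, also a lysosomal membrane protein, was higher (0.60, unadjusted p = 0.0316 and adjusted p = 0.33 from limma), while *PTPRC*, which defines leukocytes, was below the floor in all pools. *CD14* was above the floor in 1 large and 3 small pools and *CD3E* in 1 large pool. The summed immune signal was 689.6 to 894.3 in large and 598.4 to 764.2 in small pools. Of the endothelial markers 3 of 4, *PECAM1* among them, were below the floor in all pools, and *KDR* was above it in all pools. The summed endothelial signal was 321.5 to 388.7 in large and 355.6 to 380.9 in small pools. The 7 mitosis markers summed to 675.5 to 3725.2 in large and 1573.6 to 3305.0 in small pools, large pool 4 standing apart from the other large pools with *TOP2A* at 10.30 against 6.71 in large pool 3. The part of these differences in the values of the members was not tested.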

How the data were processed

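Amplified cDNA from 6 pools of 20 cells was hybridized to Affymetrix Human Gene 1.0 ST arrays. The authors deposited 1 log2 value per probe set and array, obtained by RMA (background correction, quantile normalization and summary of probes). Quantile normalization makes arrays alike before probes are summarized, so a shift shared by most genes is reduced. The deposited array medians still ran from 6.64 to 6.68 in large and from 6.73 to 6.76 in small pools. Affymetrix Expression Console stands in the submitters' processing notes, the affy package in the methods. No source used here gives the chip definition file. With 3 arrays a group, precision is limited by their number.
Groups followed the sample titles. Of 32321 probe sets 19158 had a single symbol in the platform annotation, 1388 several and 11775 none. Large minus small was tested over 18404 genes in R 4.3.3 with the moderated test of limma 3.58.1, with no covariate and Benjamini-Hochberg adjustment over all of them. Unlike in the study's own analysis no filter on level or variation was applied, so that every member had a test. The study reported *ALG11*, *UCHL3*, *TMEM144* and *PPP2CB* as significant and states that pools were picked in quadruplicates, while 3 arrays a group were used here. A filter on level and variation left 4675 probe sets here, of which 0 passed an adjusted p of 0.05 from limma. The reason for this difference from the study was not tested. The script was tested on simulated data. Over 3 and 3 pools an exact permutation test could not go below a two-sided p of 0.1.
The members, their roles and all lists were chosen with earlier results of these data known. The rule named members with an unadjusted p under 0.05, all CHMP and VPS4 genes, the cores of retromer and of HOPS and CORVET, *SNX1*, *SNX2*, *SNX3*, *SNX5*, *SNX6*, *SNX27* and *VPS72*, and up to 4 genes with such a p in each partner list. Other members were named after their values were seen. Alternatives covered scaling, the trend with level (lowess, span 0.3), filters on level and variation, the variance model, array weights, the choice of probe set and each pool left out.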

Additional observations from a re-analysis of the deposited data

How the results depend on the processing

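No member passed an adjusted p of 0.05 from limma in any setting, the lowest being 0.31. The 13 members with an unadjusted p under 0.05 kept their sign in every setting that tested them, and *SNX1*, *VPS37A*, *VPS8*, *VPS4A* and *VPS13A* also kept such a p. As these 13 were picked by p on the same values, a kept sign is no added support. The lower count of 4 was 2 after quantile normalization, 2 after centring, 1 with the trend removed, 1 with the floor and 0 with the floor and a variation filter. That filter left 1 higher member, 1 wholly above and 0 wholly below, no CHMP gene, and medians of 0.59 for SNX and 0.25 for VPS genes, beside 0.31 for all 2062 genes it left. For that filter and for quantile normalization the shares of all genes called are not given here. Members wholly below were 5 with the trend removed and 5 with the floor. The VPS median was 0.20 centred, 0.19 with the trend removed and 0.27 with the floor, and the CHMP median 0.15 with the floor. Another scaling turned the sign of 9 members. Among those named by rule *SNX3* turned to 0.008 when centred and *VPS11* to 0.052 with the trend removed. Of the others *VPS28* turned to 0.076 and 0.054, *VPS53* to 0.016 and 0.0049 and *SNX29* to 0.064 and 0.10 in these settings. The cause was not tested.
With each pool left out, the higher count ran from 6 to 10 and the lower count from 1 (without small pool 6) to 5. Members wholly above ran from 10 to 18 (highest without small pool 5) and wholly below from 10 to 13, since fewer pools overlap less. The shares of all genes without each pool are not given here, so these counts are not read as a trait of the members. The SNX median ran from -0.02 to 0.08, the VPS median from 0.073 to 0.26 and the CHMP median from -0.14 to 0.056. The sign turned for 22 members, among those named by rule for *CHMP7* (-0.29 to 0.056), *SNX3* (-0.15 to 0.0003), *VPS26A* (-0.11 to 0.29), *VPS26B* (-0.42 to 0.27), *VPS35* (-0.038 to 0.76), *VPS41* (-0.053 to 0.33) and *VPS72* (-0.20 to 0.30). The other settings (variance trend, array weights, mean over probe sets) moved no count by more than 1.5 times. No paired analysis was possible because the groups share no replicate numbers.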
